A study of Rattus norvegicus with 6 samples.

Results

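The collagen chain genes of rat vascular smooth muscle cells (contractile cells that form the media of vessels, grown here in culture) were compared between libraries labelled MIAT knockdown and libraries titled Scr, called control here. All 44 row symbols of the form Col, number, a, number were taken from a count table of 18631 genes. By textbook class they were 11 fibrillar chains, 6 basement membrane chains of type IV, 9 FACIT chains (collagens that sit on the surface of fibrils) and 18 other chains. The knockdown group held 3 libraries with a MIAT knockdown genotype label and the control group 3 libraries with a wild-type label. The treatment text, small interfering RNAs together with antisense oligonucleotides at 50 nM for 72 h, is the same for every library, so what the control cells received is not stated. MIAT is a long noncoding RNA that the study's title places with the helicase DHX9 in vein wall thickening. Its own level was not analysed here, so the groups are named by their labels.

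Collagens are the main structural proteins of the vessel wall, built from chains that wind around each other in trimers. Fibrillar collagens form the tension-bearing fibrils of the media and adventitia, type IV collagen forms the sheet of the basement membrane around each smooth muscle cell, and FACIT, beaded-filament and short-chain collagens link or space these networks. Smooth muscle cells in culture and in thickened vessel walls are known to make much matrix, and chains that share a trimer are made from separate genes.

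Total counts were 17793811 to 20121161 per library. Control library 3 stood apart, with 8.24% of its counts in collagen chains against 3.44% to 5.17% in the other 5. The titles number the libraries 1 to 3 in each group, and same-numbered libraries deviated together from their group means (correlations across genes of 0.68, 0.52 and 0.58 for numbers 1, 2 and 3). Each test was therefore run without and with the replicate number as a block. For many genes below only the result with the block is printed. Without the block the smallest edgeR adjusted p was 0.104 over all tested genes and 0.116 over the collagen chains. Below, rose and fell refer to a Benjamini-Hochberg adjusted p below 0.05 with the block, from edgeR's quasi-likelihood test over all 13423 tested genes. Without the block, the fit called 0 of the 13423 genes (0%) at that threshold, no collagen chain among them. Separate cultures are not named in the labels, so a p-value here speaks only of the spread among these libraries, which may be technical.

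Of the 44 chains, 27 reached a mean of 1 CPM (counts scaled to a common library total) over the 6 libraries. They were 9 of 11 fibrillar, 4 of 6 basement membrane, 5 of 9 FACIT and 9 of 18 other chains. The low-count filter kept 30 chains, the 27 and Col2a1, Col6a6 and Col23a1. Col2a1, the cartilage collagen, reached the filter through the knockdown libraries alone. Col23a1 reached the filter mainly through the control libraries, with 10, 24 and 30 counts there and 3, 8 and 16 in the knockdown libraries. The 14 chains that did not were Col24a1, Col4a4, Col4a6, Col9a1, Col9a2, Col19a1, Col22a1, Col6a4, Col6a5, Col10a1, Col13a1, Col25a1, Col26a1 and Col28a1. Col28a1 had 0 counts in all 3 knockdown libraries and in control library 3, and Col26a1 had 1 count in all.

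With the block 15 of the 30 tested chains fell, 0 rose and 15 did not pass. Of all tested genes 11.1% fell and 10.5% rose. The 15 include Col23a1, whose fall is a description only, since it entered mainly through its control libraries. By class, 5 of 10 fibrillar, 3 of 4 basement membrane, 2 of 5 FACIT and 5 of 11 other chains fell. The falls ranged from 1.19-fold (Col16a1) to 1.81-fold (Col12a1) among chains above 1 CPM. The median log2 fold change was -0.30 over the 30 chains with the block and -0.35 without it, against -0.01 over all tested genes with the block. It was -0.27 for the fibrillar, -0.46 for the basement membrane, -0.27 for the FACIT and -0.32 for the other chains, and differences between classes were not tested. Without pair 3 these medians were -0.16, -0.46, -0.15 and -0.22.

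In 6 of the 30 chains every knockdown library was below every control library, where 11.8% of all tested genes had that pattern. These were Col12a1, Col4a1, Col4a2, Col8a1, Col5a1 and Col27a1. In the opposite direction, Col2a1 alone had no overlap, at 1.04, 0.805 and 1.25 CPM in knockdown libraries 1, 2 and 3 and 0.396, 0.280 and 0 CPM in control libraries 1, 2 and 3, and 14.2% of all tested genes were separated upward. Since Col2a1 entered through its knockdown libraries, its upward direction was fixed by the filter and is a description only. Of the 30 chains, 17 were lower in 3 of 3 same-numbered pairs, against 28.5% of all tested genes, and 1 (Col2a1) was higher in 3 of 3, against 28%. At an unadjusted p below 0.05 without the block, 7 of the 30 chains were lower, against 8.76% of all tested genes, and DESeq2 without the block called 4 chains lower and 0 higher (2.57% and 2.85% of all genes). With total counts in place of TMM scaling, the block fit called 10 chains lower and 1 (Col2a1) higher, beside 6.1% lower and 21% higher among all genes.

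**Figure D1:**
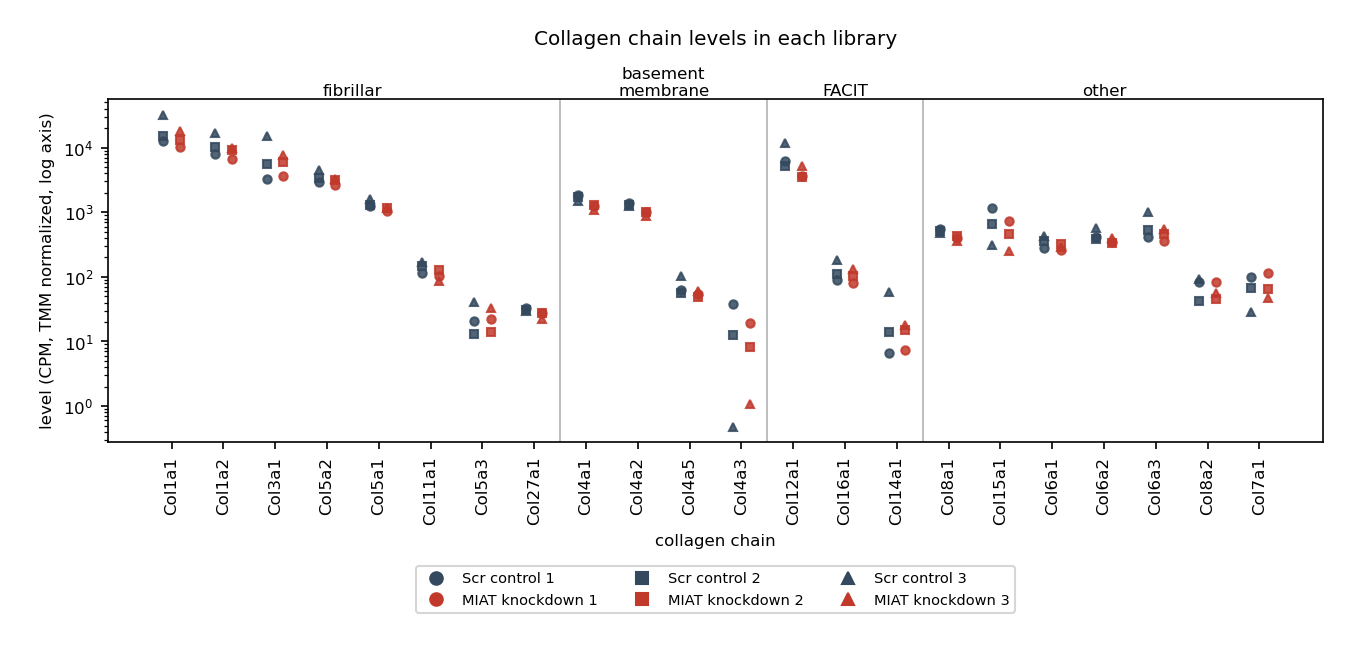
Levels of the 22 collagen chains with a mean of at least 10 CPM, by class, on a log axis. Each point is 1 library, dark for control and red for MIAT knockdown, with the marker giving the replicate number. The points of Col4a1, Col4a2, Col8a1 and Col12a1 separate by group, while those of Col15a1, Col4a3 and Col14a1 spread mainly by replicate number.

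The chain calls changed with a correction for gene length, and the part of length in the falls was not tested. The median length behind the deposited FPKM (counts scaled by gene length and library total) was 6202 bases for the tested chains and 3159 bases for all tested genes. When a per-library curve on gene length was taken out, the count with the block was 5 lower and 2 higher (Col7a1 and Col2a1), beside 7.58% lower and 9.51% higher among all tested genes. Chains that lost the call shrank by different amounts, for example Col1a2 from -0.39 to -0.35 and Col27a1 from -0.29 to -0.15. With the block and this correction the class medians were -0.18 (fibrillar), -0.36 (basement membrane), -0.17 (FACIT) and -0.25 (other). The 5 lower chains were Col12a1, Col4a1, Col4a2, Col15a1 and Col8a1. The same 5 chains passed in each of the 9 alternatives with the block (other scalings, filters and tools, the length correction, and each pair left out), as no other chain did. Without pair 2 these 5 alone passed, beside 388 of 13607 tested genes lower and 348 higher.

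Markers of other cells moved as well, to be read against the 11.1% of all tested genes that fell and the 10.5% that rose. Of 5 fibroblast and adventitia markers, 4 fell (Pdgfra, Dpt, Lum and Dcn) and Pi16 was not past the threshold, with a summed level of 1428 to 1733 CPM in knockdown and 2017 to 2172 CPM in control libraries. Of 9 smooth muscle markers, 4 fell (Myh11, Lmod1, Mylk and Itga8) and 0 rose, at summed levels of 5414 to 7942 CPM and 6277 to 7969.5 CPM. The smooth muscle marker Des was at a mean of 0.468 CPM. Of 6 endothelial markers 1 fell (Kdr), at sums of 43.6 to 47.5 and 49.96 to 56.1 CPM. Most of that sum was Egfl7, at a mean of 42.7 CPM and not past the threshold, while Pecam1 and Vwf were at 0.62 and 0.72 CPM. Of 6 leukocyte markers 0 fell, at 22.2 to 26.5 and 21.6 to 34.8 CPM. Of 4 cartilage markers (Acan, Sox9, Comp and Matn3) 0 fell and 0 rose, at 20.96 to 47.2 and 22.6 to 45.3 CPM. Most of the cartilage sum was Sox9, at a mean of 26.4 CPM. The leukocyte marker Ptprc and the endothelial marker Cdh5 were at or near 0, and the 4 epithelial markers summed to 1.56 to 2.49 CPM over all libraries. The part of the fibroblast, endothelial and smooth muscle markers in the collagen result was not tested. In bulk RNA, fewer cells of a type and less RNA per cell cannot be told apart.

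Type I collagen, the bulk of the fibrils, stood highest among the chains per length, and both of its chains fell. Col1a1, its alpha 1 chain, was at 10110.2, 12920.4 and 18400.4 CPM in knockdown libraries 1, 2 and 3 and 12621, 15157 and 32459 CPM in control libraries 1, 2 and 3. Within each pair the knockdown library was the lower one, and across pairs the groups overlapped, since control libraries 1 and 2 lay below knockdown library 3. Col1a1 fell 1.37-fold, with a log2 fold change of -0.46 ± 0.104 (SE) and an adjusted p of 0.0174 with the block. In pairs 1, 2 and 3 the log2 difference was -0.32, -0.23 and -0.82, largest in the pair with control library 3. Col1a2, the alpha 2 chain, was at 6629, 9242 and 9945 CPM in knockdown libraries 1, 2 and 3 and 7916, 10284 and 16997 CPM in control libraries 1, 2 and 3, and fell 1.31-fold (adjusted p = 0.0324). Without the block the log2 fold changes were -0.54 ± 0.400 (adjusted p = 0.509) and -0.45 ± 0.307 (adjusted p = 0.473). In DESeq2 with the block neither passed (-0.47, adjusted p = 0.444, and -0.40, adjusted p = 0.388), nor did they with the length correction (-0.37, adjusted p = 0.0667, and -0.35, adjusted p = 0.0839). Without pair 2 the fold changes were larger but neither passed (-0.57, adjusted p = 0.0601, and -0.51, adjusted p = 0.0765), and the same held for Col1a2 without pair 1 (-0.46, adjusted p = 0.0667). Without pair 3 the log2 fold changes were -0.28 and -0.21. Without the block and without control library 3 they were -0.00844 (edgeR adjusted p = 0.992) for Col1a1 and -0.0806 (0.878) for Col1a2.

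Type III collagen did not follow type I in pairs 1 and 2. Col3a1, which forms fibrils with type I in elastic vessels, was at 3579.5, 5933 and 7590.0 CPM in knockdown libraries 1, 2 and 3 and 3227, 5659 and 14969 CPM in control libraries 1, 2 and 3. It was slightly higher in the knockdown library of pairs 1 and 2 and lower in pair 3, with log2 differences of 0.15, 0.07 and -0.98. The block fit gave -0.25 ± 0.185 (SE, adjusted p = 0.365), and 0.11 without pair 3, so the direction of Col3a1 turned with that pair.

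Type V collagen, which starts and limits the width of type I fibrils, had log2 fold changes smaller in size than type I in the block fit. This difference was not tested. Without pair 3 the values were -0.205 for Col5a1 and -0.131 for Col5a2, beside -0.278 for Col1a1 and -0.208 for Col1a2. Col5a1 was at 1051, 1167 and 1165 CPM in knockdown libraries 1, 2 and 3 and 1234, 1315 and 1604 CPM in control libraries 1, 2 and 3. Every knockdown library lay below every control library, and Col5a1 fell 1.22-fold (log2 fold change -0.29 ± 0.0680, adjusted p = 0.0201). Its partner Col5a2, at 2675, 3108 and 3266 CPM in knockdown libraries 1, 2 and 3 and 2952, 3364 and 4522 CPM in control libraries 1, 2 and 3, overlapped between the groups. At a log2 fold change of -0.24 ± 0.0766 it was just outside the threshold (adjusted p = 0.0543). Col5a2 passed in 3 of 9 alternatives with the block, for example in DESeq2 (adjusted p = 0.0296). It did not pass with the length correction (-0.15, edgeR adjusted p = 0.293) or without pair 1, 2 or 3 (0.136, 0.146 and 0.115). Col5a3, a minor type V chain, showed no shift beyond its error. It was at 22.3, 14.3 and 32.7 CPM in knockdown libraries 1, 2 and 3 and 21.1, 13.2 and 40.8 CPM in control libraries 1, 2 and 3, with -0.06 ± 0.105 (adjusted p = 0.709). The Col5a1 call ended, at larger log2 fold changes, without pair 1 (-0.31, adjusted p = 0.0773) and without pair 2 (-0.35, adjusted p = 0.0855), and at a smaller one with the length correction (-0.20, adjusted p = 0.119).

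Among the minor fibrillar chains, Col11a1 and Col27a1 fell. Col11a1, a chain of the thin fibrils that is closely related to type V, was at 101, 127 and 85.3 CPM in knockdown libraries 1, 2 and 3 and 114, 147 and 168 CPM in control libraries 1, 2 and 3. Only knockdown library 2 lay above a control library, and the log2 differences of -0.17, -0.21 and -0.98 were largest in pair 3 (block fit -0.45 ± 0.138, adjusted p = 0.0477, and -0.19 without pair 3). Col27a1 was at 27.2, 27.2 and 22.6 CPM in knockdown libraries 1, 2 and 3 and 33.2, 30.3 and 30.1 CPM in control libraries 1, 2 and 3, all knockdown libraries below all control libraries, and fell 1.22-fold (adjusted p = 0.0390). The Col11a1 call ended with total count scaling (-0.35, adjusted p = 0.0696), in DESeq2 (-0.46, adjusted p = 0.294), with the length correction (-0.34, adjusted p = 0.107) and without pair 2 (-0.57, adjusted p = 0.0939), and that of Col27a1 in these 4 settings and without pair 1 or pair 3 as well. Col11a2, at a mean of 4.70 CPM, had a log2 fold change of 0.11 ± 0.208. Col2a1 was detected at 20, 15 and 24 counts in the knockdown and 7, 5 and 0 counts in the control libraries, a chain named after its values were seen.

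**Figure D2:**
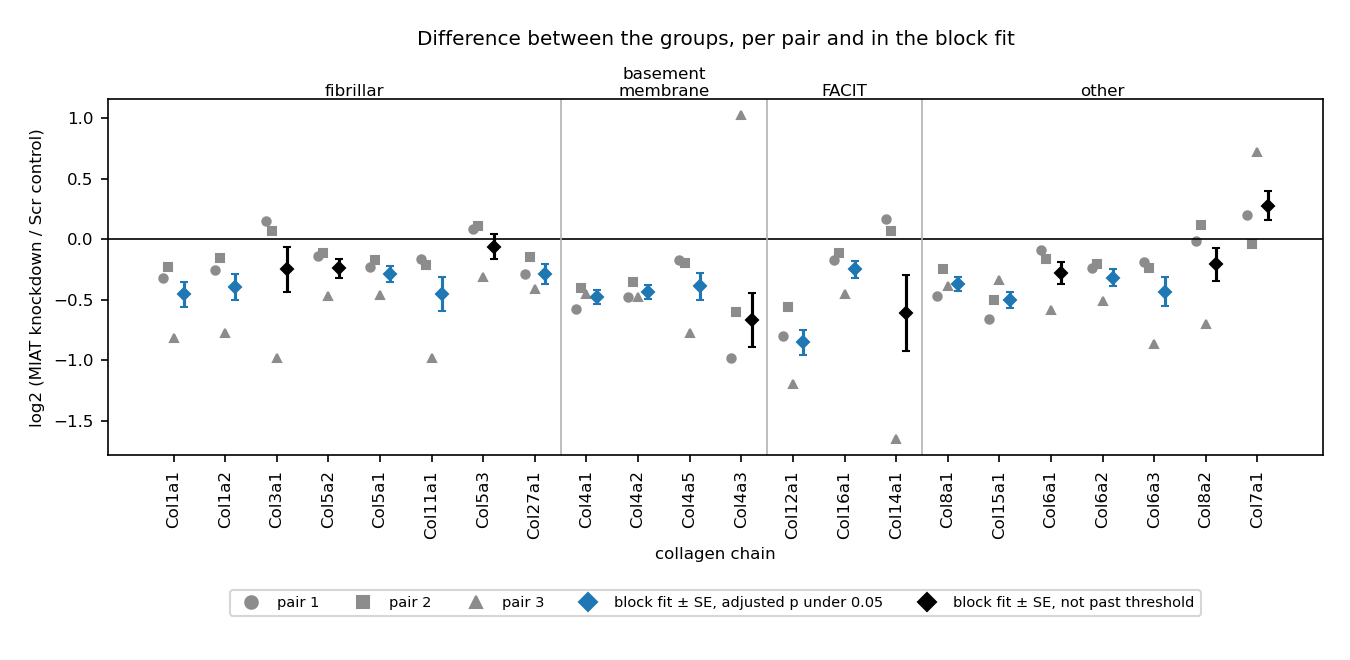
Log2 ratio of MIAT knockdown to control for the 22 chains with a mean of at least 10 CPM. Grey points are the 3 same-numbered pairs, and diamonds the block fit with its standard error, blue where the adjusted p was under 0.05 (14 of 22). Pair 3 is the lowest point in 16 of the 22 chains, and the pairs lie close together for Col4a1, Col4a2 and Col8a1.

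The main basement membrane chains were lower in every knockdown library. Col4a1 and Col4a2, the chains of the common type IV trimer, are encoded head to head. In RefSeq's GRCr8 assembly their start sites lie on opposite strands of chromosome 16 with 76 bases between them, and these bases are shown because the genes start at either end and both fell. The stretch is chr16:84885521-84885596, read on the plus strand toward Col4a1, and holds 1 GC box (GGGCGG on either strand, in capitals) and no CCAAT or TATAAA match on either strand.
Col4a2 to Col4a1: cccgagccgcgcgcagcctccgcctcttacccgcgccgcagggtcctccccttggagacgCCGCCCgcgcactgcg
The genome build behind the counts is unstated, and these bases serve only to show the arrangement.

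Col4a1 was at 1231, 1295 and 1098 CPM in knockdown libraries 1, 2 and 3 and 1841, 1711 and 1507 CPM in control libraries 1, 2 and 3. Col4a2 was at 995, 1018 and 884 CPM in knockdown libraries 1, 2 and 3 and 1387, 1301 and 1228 CPM in control libraries 1, 2 and 3. In both genes the highest knockdown library lay below the lowest control library. Col4a1 fell 1.40-fold (log2 fold change -0.48 ± 0.0590, adjusted p = 0.00259) and Col4a2 1.35-fold (-0.44 ± 0.0566, adjusted p = 0.00299). The pairs differed little, at -0.58, -0.40 and -0.46 for Col4a1 and -0.48, -0.35 and -0.47 for Col4a2. Without the block the values were -0.48 ± 0.118 (adjusted p = 0.121) and -0.43 ± 0.101 (adjusted p = 0.116), and DESeq2 without the block called both (adjusted p = 0.00344 and 0.00131). The FPKM ratio of Col4a1 to Col4a2 was 1.18, 1.21 and 1.19 in knockdown libraries 1, 2 and 3 and 1.27, 1.26 and 1.17 in control libraries 1, 2 and 3, nearly constant while both levels changed.

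The other type IV chains are rarer and varied more between libraries. Col4a5, a chain of the more restricted type IV networks, was at 54.9, 49.2 and 61.2 CPM in knockdown libraries 1, 2 and 3 and 61.8, 56.5 and 105 CPM in control libraries 1, 2 and 3. Control library 3 was well above the rest. Col4a5 fell 1.31-fold (adjusted p = 0.0401), with a log2 fold change of -0.39 that was -0.19 without pair 3 (adjusted p = 0.0441), and the call ended without pair 2 (-0.48, adjusted p = 0.0913), under total count scaling (-0.28, adjusted p = 0.0725) and under the length correction (-0.29, adjusted p = 0.1003). Col4a3, a chain best known from kidney and lung basement membranes, was at 19.2, 8.15 and 1.09 CPM in knockdown libraries 1, 2 and 3 and 38, 12.4 and 0.482 CPM in control libraries 1, 2 and 3. Libraries numbered 1 were highest and libraries numbered 3 lowest in both groups. The pair differences of -0.98, -0.60 and 1.02 did not share a sign, and the block fit gave -0.67 ± 0.222 (adjusted p = 0.0639), with -0.85, adjusted p = 3.3e-11 without pair 3 and -0.19, adjusted p = 0.780 without pair 1. The variance estimate without a pair rests on few residual degrees of freedom. Col4a4, which starts 412 bases from Col4a3 on the opposite strand in RefSeq, had at most 1 count in any library.

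Among FACIT chains, Col12a1 was by far the most abundant and had the largest fall of all chains above 1 CPM. Type XII collagen coats type I fibrils and links them to other matrix proteins. Col12a1 was at 3626, 3553 and 5205 CPM in knockdown libraries 1, 2 and 3 and 6307, 5254 and 11907 CPM in control libraries 1, 2 and 3. No knockdown library reached the level of any control library, although knockdown library 3 was close to control library 2. It fell 1.81-fold, with a log2 fold change of -0.85 ± 0.104 (SE) and an adjusted p of 0.00259 with the block, and log2 differences of -0.80, -0.56 and -1.19 in the pairs. Without the block the estimate was -0.92 ± 0.331 (adjusted p = 0.203), and DESeq2 without the block called it (adjusted p = 0.0369). Per length, the ratio of Col12a1 to Col1a1 was 0.177, 0.136 and 0.140 in knockdown libraries 1, 2 and 3 and 0.247, 0.171 and 0.181 in control libraries 1, 2 and 3, so within each pair Col12a1 was lower relative to Col1a1 in the knockdown library.

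Of the other FACIT chains, Col16a1 fell 1.19-fold. It was at 80.5, 103 and 133 CPM in knockdown libraries 1, 2 and 3 and 90.8, 112 and 183 CPM in control libraries 1, 2 and 3, with overlapping groups and adjusted p = 0.0416. This call was among the least stable, ending in 6 of the 9 alternatives with the block. These were DESeq2, the length correction, each left-out pair and total count scaling (-0.14, adjusted p = 0.145). Col14a1, a fibril-surface collagen of adventitia and tendon, was at 7.44, 14.9 and 18.3 CPM in knockdown libraries 1, 2 and 3 and 6.63, 14.2 and 57.7 CPM in control libraries 1, 2 and 3. Control library 3 held several times the level of any other library. Pairs 1 and 2 differed by 0.16 and 0.07 and pair 3 by -1.65, and the block fit did not pass (adjusted p = 0.199). Col20a1 and Col9a3, at means of 5.02 and 1.11 CPM, had log2 fold changes of -0.27 ± 0.185 and 0.57 ± 0.396, neither past the threshold.

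The short-chain and multiplexin collagens included Col8a1 and Col15a1, whose falls passed in each alternative with the block but not in edgeR without it. Col8a1 encodes a chain of type VIII collagen, a network collagen known to be made by migrating smooth muscle cells in injured arteries. It was at 404, 434 and 361 CPM in knockdown libraries 1, 2 and 3 and 559, 516 and 473 CPM in control libraries 1, 2 and 3, and the groups did not overlap. Col8a1 fell 1.29-fold, with a log2 fold change of -0.37 ± 0.0607 (SE) and an adjusted p of 0.00570 with the block. Without the block the estimate was -0.37 ± 0.105 (edgeR adjusted p = 0.145). Its partner Col8a2 was at 82.9, 45.9 and 57.1 CPM in knockdown libraries 1, 2 and 3 and 83.8, 42.3 and 93 CPM in control libraries 1, 2 and 3, with knockdown and control nearly level in pairs 1 and 2 and a log2 fold change of -0.21 ± 0.136 (adjusted p = 0.303). The FPKM ratio of Col8a1 to Col8a2 ranged from 6.78 to 17 over the 6 libraries, far more than that of the type IV pair.

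Col15a1, the chain of a proteoglycan collagen that anchors basement membranes to the fibrils beside them, was at 726, 468 and 250.005 CPM in knockdown libraries 1, 2 and 3 and 1146, 662 and 317 CPM in control libraries 1, 2 and 3. Its level varied more between replicate numbers than between groups. Within each number the knockdown library was lower, by log2 differences of -0.66, -0.50 and -0.34. With the block it fell 1.42-fold (-0.50 ± 0.0689, adjusted p = 0.00341), while without the block the estimate was -0.56 ± 0.519 (adjusted p = 0.605). The Col15a1 log2 fold change ranged from -0.58 to -0.39 over the alternatives with the block and from -0.98 to -0.0281 over all settings. The related Col18a1, source of endostatin, was at a mean of 5.14 CPM with -0.46 ± 0.231 (adjusted p = 0.189).

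Upstream sequences from RefSeq's GRCr8 promoter table are shown for Col1a2, Col15a1 and Col8a1, because these chains fell together while their order over the replicate numbers differed. Each run is the 250 bases before the annotated start site, on the plus strand, at chr4:33518307-33518556, chr5:66297296-66297545 and chr11:56246532-56246781. Capitals mark matches, on either strand, to the motifs CCAAT (the CCAAT box), GGGCGG (the GC box) and also TATAAA (the TATA box), and no matches overlapped.
Col1a2: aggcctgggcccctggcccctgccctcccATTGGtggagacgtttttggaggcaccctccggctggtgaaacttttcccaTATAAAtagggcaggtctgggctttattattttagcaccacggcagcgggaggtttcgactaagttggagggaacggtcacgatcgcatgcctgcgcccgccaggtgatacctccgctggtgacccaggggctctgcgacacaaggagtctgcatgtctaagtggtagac
Col15a1: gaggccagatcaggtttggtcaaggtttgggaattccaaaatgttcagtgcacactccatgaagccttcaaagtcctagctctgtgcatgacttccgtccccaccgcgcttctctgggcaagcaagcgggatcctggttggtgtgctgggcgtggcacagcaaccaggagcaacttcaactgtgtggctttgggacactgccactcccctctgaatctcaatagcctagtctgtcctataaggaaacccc
Col8a1: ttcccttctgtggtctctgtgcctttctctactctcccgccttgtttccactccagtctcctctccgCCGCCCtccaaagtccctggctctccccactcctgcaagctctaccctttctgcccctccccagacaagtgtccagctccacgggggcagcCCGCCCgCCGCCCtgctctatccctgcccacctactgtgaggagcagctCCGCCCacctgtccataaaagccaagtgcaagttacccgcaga
Col1a2 held 1 CCAAT and 1 TATAAA match and no GC box, Col8a1 held 4 GC boxes and neither of the others, and Col15a1 held none of the 3. The table had an entry for 35 of the 44 chains, 12 of them among the 15 that fell. Col1a1, Col3a1 and Col12a1 were among the chains with no entry. GGGCGG was in the 250 bases of 19 of the 35 chains and 9 of the 12 that fell, against 32.4% of 27457 promoters. CCAAT was in 11 and 4, against 34.3%, and TATAAA in 4 and 1, against 13.1%. The AP-1 letters TGACTCA were in 1 and 0 (3.98% of promoters) and the E-box CACGTG in 0 and 0 (5.79%). Col4a1 and Col4a2 each count for GGGCGG and CCAAT, although their 250-base windows overlap and share the GC box between them. The percentages are over all annotated promoters, whether or not the gene was tested here. A match is only a run of letters and is not a site shown to be used.

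Type VI collagen, whose beaded filaments tie cells to the surrounding matrix, has its main trimer from Col6a1, Col6a2 and Col6a3. Col6a2 was at 352, 339 and 397 CPM in knockdown libraries 1, 2 and 3 and 416, 391 and 566 CPM in control libraries 1, 2 and 3, and fell 1.25-fold (adjusted p = 0.0148). Col6a3 was at 364, 453 and 552 CPM in knockdown libraries 1, 2 and 3 and 415, 535 and 1008 CPM in control libraries 1, 2 and 3, and fell 1.35-fold (adjusted p = 0.0331). For each, control library 3 was highest and the groups overlapped. Col6a1, at 258, 320.2 and 288 CPM in knockdown libraries 1, 2 and 3 and 275, 359 and 432 CPM in control libraries 1, 2 and 3, was just outside the threshold (-0.28 ± 0.0908, adjusted p = 0.0582). It passed in 4 of 9 alternatives with the block, DESeq2 among them (adjusted p = 0.0337). All 3 were lower in 3 of 3 pairs. Without pair 2 neither call held (-0.37, adjusted p = 0.0716, and -0.53, adjusted p = 0.0890), nor with the length correction (-0.25, adjusted p = 0.0522, and -0.26, adjusted p = 0.162), and Col6a3 did not pass in DESeq2 (0.182). Without pair 3 the Col6a3 log2 fold change was -0.22.

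Col7a1, the chain of the anchoring fibrils, was the only chain of at least 10 CPM with a positive block estimate. It was at 114, 66 and 47.6 CPM in knockdown libraries 1, 2 and 3 and 99.7, 67.8 and 28.8 CPM in control libraries 1, 2 and 3. Like Col15a1 it was highest in libraries numbered 1, and the groups overlapped. Its log2 fold change was 0.28 ± 0.121 (adjusted p = 0.135), and it passed upward with the length correction (0.43, adjusted p = 0.0320). The transmembrane chain Col17a1, at a mean of 9.33 CPM, was level between groups (0.01 ± 0.124). Col23a1, another transmembrane chain, fell at counts of 3, 8 and 16 against 10, 24 and 30 (adjusted p = 0.0495). This call ended in 6 of 8 alternatives and is named because it passed. Since Col23a1 entered mainly through its control libraries, its fall is a description only. Col6a6, at a mean of 0.679 CPM, had -0.12 ± 0.423.

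The replicate number separated collagen chains into opposite orders. Of the 22 chains of at least 10 CPM, 13 were higher in library 3 than in library 1 in both groups, 7 were lower in both, and 2 (Col11a1 and Col8a2) differed in order between the groups. Col3a1 in library 3 was 4.64 times its level in library 1 in the control and 2.12 times in the knockdown. For Col1a1 these ratios were 2.57 and 1.82, and for Col14a1 8.71 and 2.46. In the other direction they were 0.276 and 0.345 for Col15a1, 0.289 and 0.416 for Col7a1 and 0.0127 and 0.0566 for Col4a3. Control library 3 held the highest level of 15 of the 22 chains and control library 1 of 6, and Col7a1 was highest in knockdown library 1. Col4a3 was the 1 chain of the 22 that differed 3-fold or more between libraries 1 and 3 in both groups, a pattern of 1.5% of all tested genes. What the number marks is not stated in the labels.

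**Figure D3:**
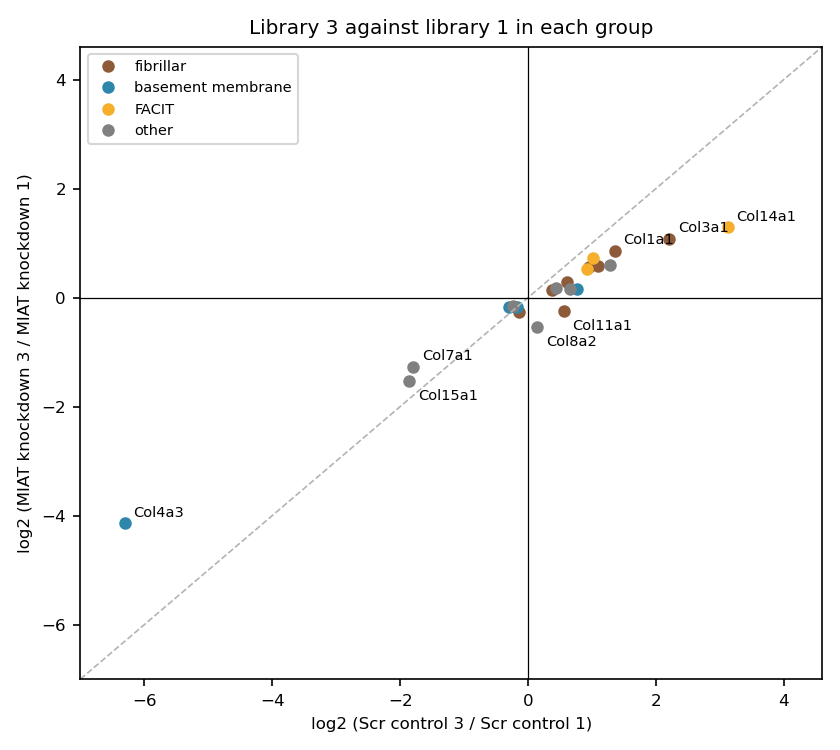
Log2 ratio of library 3 to library 1 in the control (horizontal) and the MIAT knockdown group (vertical) for the 22 chains of at least 10 CPM, coloured by class. The dashed line marks equal ratios. Col3a1, Col14a1 and Col1a1 lie at upper right and Col4a3, Col15a1 and Col7a1 at lower left, while Col11a1 and Col8a2 fall in the quadrant where the groups differ in order.

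The share of all counts in the 44 chains was 3.44%, 4.16% and 5.17% in knockdown libraries 1, 2 and 3 and 4.06%, 4.56% and 8.24% in control libraries 1, 2 and 3. It was lower in the knockdown library of every pair, and the groups overlapped, since knockdown libraries 2 and 3 lay above control library 1. Most of it was Col1a1, Col1a2 and Col3a1, with 2.91% ± 0.789 in the knockdown and 3.79% ± 1.93 in the control libraries (SD, n = 3). The remaining 41 chains took 1.29%, 1.29% and 1.45% in knockdown libraries 1, 2 and 3 and 1.70%, 1.55% and 2.26% in control libraries 1, 2 and 3, without overlap. The log2 ratio of the group means of the whole share was -0.40, and -0.02 without control library 3.

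Per length, by deposited FPKM, the fibrillar share of the collagen sum was 80.3%, 85% and 87% in knockdown libraries 1, 2 and 3 and 76.3%, 82.7% and 87.1% in control libraries 1, 2 and 3. The FACIT share was 5.66%, 4.39% and 5.28% in knockdown libraries 1, 2 and 3 and 7.93%, 5.62% and 6.75% in control libraries 1, 2 and 3, lower in the knockdown library of each pair. The basement membrane share was 6.22%, 4.99% and 3.57% in knockdown libraries 1, 2 and 3 and 7.37%, 5.73% and 2.83% in control libraries 1, 2 and 3 and ordered by replicate number in both groups. Ranked by mean FPKM over all genes of the table, Col1a1 was in place 7, Col1a2 in place 16 and Col3a1 in place 24. Below them among the chains came Col5a2 (539 FPKM), Col12a1 (498), Col4a1 (219), Col5a1 (208), Col4a2 (179.9), Col8a1 (126) and Col15a1 (115).

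**Figure D4:**
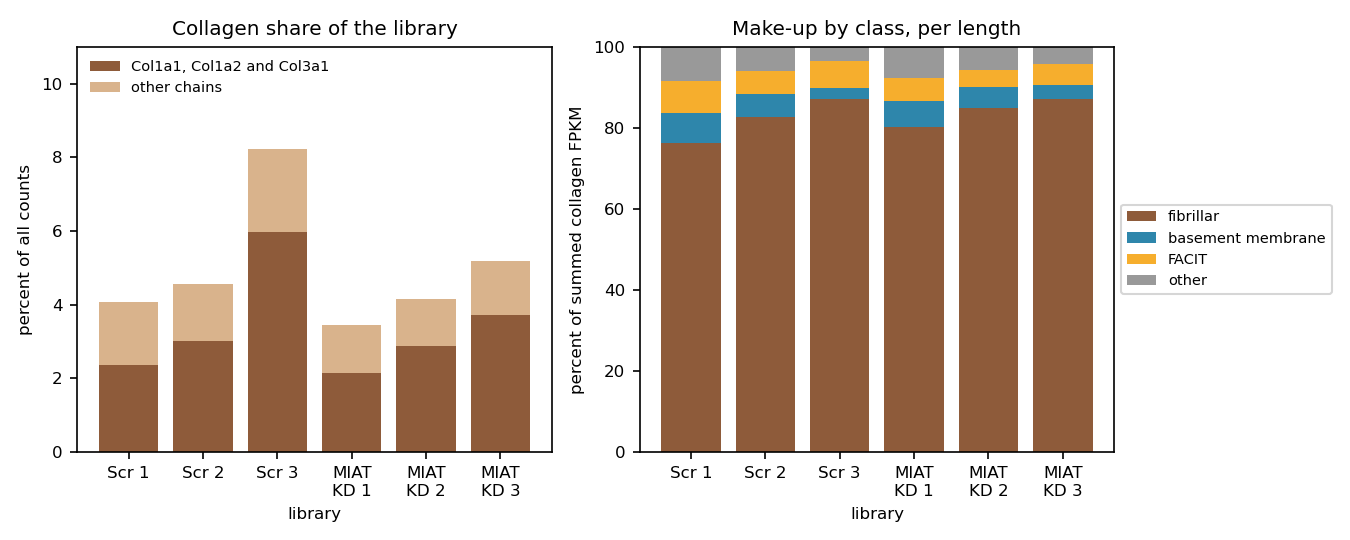
Left, percent of each library's counts in collagen chains, split into Col1a1, Col1a2 and Col3a1 and the other chains. Right, percent of the summed collagen FPKM in each class. Control library 3 has the highest collagen share (8.24%), and the fibrillar part is largest in libraries numbered 3 of both groups (87.1% and 87%).

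Chains of one trimer kept their proportions to different degrees. The FPKM ratio of Col1a1 to Col1a2, which share the type I trimer, was 1.17, 1.07 and 1.42 in knockdown libraries 1, 2 and 3 and 1.22, 1.13 and 1.46 in control libraries 1, 2 and 3. Within pairs the ratio differed little, and it was highest in libraries numbered 3. That of Col5a2 to Col5a1 was 2.63 ± 0.128 in the knockdown and 2.55 ± 0.212 in the control libraries (SD, n = 3). The ratio of Col6a1 to Col6a3 was 1.91, 1.90 and 1.40 in knockdown libraries 1, 2 and 3 and 1.78, 1.80 and 1.15 in control libraries 1, 2 and 3, lowest in control library 3. Col3a1 to Col1a1 was 0.433, 0.561 and 0.504 in knockdown libraries 1, 2 and 3 and 0.312, 0.456 and 0.563 in control libraries 1, 2 and 3, higher in the knockdown library of pairs 1 and 2 only.

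Among genes that modify, fold, cut and crosslink collagen, some hydroxylases and propeptide proteases fell and others did not pass. The hydroxylase genes Plod1, Plod3, P3h1 and P3h3 fell, while P4ha1, P4ha2, P4ha3, P4hb, Plod2 and P3h2 were not past the threshold. Of the proteases, Bmp1, Tll1 and Adamts2 fell, while Tll2, Adamts3 and Adamts14 were not past it. Of 32 tested genes of collagen synthesis, folding and crosslinking, 12 fell, 1 rose and 19 did not pass, with a median log2 fold change of -0.18, where 11.1% of all tested genes fell and 10.5% rose. Without pair 2 the lower calls were 4 and without pair 1 they were 7, beside 388 of 13607 and 665 of 13375 tested genes. Plod1, a lysyl hydroxylase that prepares collagen for crosslinking, was at 182, 225 and 262 CPM in knockdown libraries 1, 2 and 3 and 242, 286 and 371 CPM in control libraries 1, 2 and 3. Bmp1, which cuts off the propeptide so that fibrils can form, was at 115, 131 and 149 CPM in knockdown libraries 1, 2 and 3 and 148, 169 and 202 CPM in control libraries 1, 2 and 3. They fell 1.34-fold (adjusted p = 0.00320) and 1.31-fold (adjusted p = 0.00331), and each was lower in every pair. The related protease Tll1 was at 109 ± 41.1 against 148 ± 59.3 CPM (SD, n = 3, edgeR adjusted p = 0.00281 with the block and 0.585 without). P3h1, a prolyl hydroxylase of the endoplasmic reticulum, was at 109 ± 8.51 against 137 ± 13 CPM (SD, n = 3, edgeR adjusted p = 0.00603 with the block and 0.152 without). Such SDs include the differences between replicate numbers, which the block fit takes out. The Tll1 call ended with the length correction (adjusted p = 0.0823) and the P3h1 call without pair 2 (0.0507). Serpinh1, the collagen chaperone HSP47 and the most abundant member per length, was at 1522 ± 152 against 1588 ± 348 CPM (SD, n = 3), with -0.04 ± 0.0738. The gene that rose was Loxl4, a crosslinking oxidase, at 41.3 ± 3.80 against 34.1 ± 2.82 CPM (SD, n = 3, edgeR adjusted p = 0.0468 with the block and 0.216 without). Its call ended in 4 of 9 alternatives, for example without pair 1 (0.23, adjusted p = 0.202).

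Of 8 tested collagen receptors and uptake genes, 5 fell, 0 rose and 3 did not pass, with a median of -0.26, against the same shares of 11.1% and 10.5%. Lower calls were 2 without pair 2, 2 with the length correction, 3 without pair 1 and 3 in DESeq2 with the block. Among all tested genes these settings called 388 of 13607, 1018 of 13423, 665 of 13375 and 929 of 13162 lower. Itga11, the integrin alpha subunit that binds fibrillar collagen, was at 469, 672 and 528 CPM in knockdown libraries 1, 2 and 3 and 689, 935 and 1057 CPM in control libraries 1, 2 and 3. All knockdown libraries were below all control libraries, and Itga11 fell 1.60-fold (-0.68 ± 0.0953, adjusted p = 0.00362), also in DESeq2 without the block (adjusted p = 0.0188). Itga1, an integrin alpha subunit that binds type IV collagen, was at 231 ± 63.3 against 329.6 ± 15.8 CPM (SD, n = 3, edgeR adjusted p = 0.0150 with the block and 0.228 without). Mrc2, which takes up collagen for breakdown, was at 325 ± 28.7 against 427 ± 59 CPM (SD, n = 3, edgeR adjusted p = 0.00456 with the block and 0.169 without). Ddr2, a receptor kinase for fibrillar collagen, was at 310.4 ± 22.2 against 378 ± 53.4 CPM (SD, n = 3, edgeR adjusted p = 0.0147 with the block and 0.262 without). Ddr1, the related receptor kinase, was at 80.1 ± 10.007 against 95.5 ± 20.5 CPM (SD, n = 3, edgeR adjusted p = 0.0304 with the block and 0.448 without). The shared subunit Itgb1, the most abundant per length, was at 2027 ± 131 against 2119 ± 165 CPM (SD, n = 3), with -0.06 ± 0.0756. The Itga1 call ended in DESeq2 with the block (adjusted p = 0.0757) and the Ddr2 call without pair 1 (0.0714). Both ended with the length correction (adjusted p = 0.0561 and 0.233), and those of Ddr2 and Mrc2 without pair 2 (0.0739 and 0.0547).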

How the data were processed

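The 6 libraries, 3 in each group, were made from polyadenylated RNA of rat smooth muscle cell cultures. The authors deposited whole-number counts per gene symbol and FPKM values. Dividing each count by a fixed gene length and the total of its library gave the FPKM for 100% of values above 0, within a relative tolerance of 1e-06, and the lengths used here come from that. The aligner, counting program, strand setting and genome build were not given in the sources used here, and reads shared between similar chains could be split by the counting.

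Counts were normalized with TMM and filtered with filterByExpr, which left 13423 of 18631 genes, and tested with edgeR 4.0.16 (R 4.3.3) without a block and with the replicate number as a block, since every same-numbered pair correlated above 0.1. The biological coefficient of variation was 19.7% without and 8.09% with the block, on 4 and 2 residual degrees of freedom. A standard error is the log2 fold change divided by the root of the F statistic, and pair differences are log2 CPM with a prior count of 2. The script was tested on simulated counts. Alternatives used DESeq2 1.42.0, limma-voom 3.58.1, other scalings and filters, a length correction (loess, span 0.5) and left-out libraries or pairs. With total counts as scaling and no block, the all-gene median shifted from -0.01 to 0.09 (log2). All chains are accounted for by name: values in every library for a mean of at least 10 CPM, fold changes from 1 to 10 CPM, and names below that. In each partner list up to 4 genes with the smallest adjusted p and the most abundant one are named, besides genes in counts of 5 or fewer. The hydroxylases and propeptide proteases of the synthesis list are named as well. Members and lists were chosen with earlier results of these data known. Upstream sequences and names came from RefSeq's GRCr8 tables, where all 44 chains matched by symbol.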

Additional observations from a re-analysis of the deposited data

How the results depend on the processing

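With the replicate number as a block, the counts of genes called lower and higher moved from 0 and 0 to 15 and 0 for the 30 collagen chains, 12 and 1 for the 32 synthesis genes and 5 and 0 for the 8 receptors. In the other fits with the block, these counts were as follows, chains first. They were 16 and 1, 15 and 0, and 5 and 0 with DESeq2 size factors, 10 and 1, 9 and 1, and 4 and 1 with total counts as scaling, and 15 and 0, 15 and 1, and 5 and 0 with a mean CPM filter. They were 10 and 0, 10 and 0, and 3 and 0 in DESeq2, and 17 and 1, 15 and 1, and 5 and 0 in limma-voom. With the length correction they were 5 and 2, 11 and 1, and 2 and 1. Among all tested genes, these settings in the same order called 1606 and 1355 of 13423, 819 and 2822 of 13423, and 1532 and 1399 of 12613. The last 3 settings called 929 and 661 of 13162, 1602 and 1449 of 13423, and 1018 and 1276 of 13423. Leaving out 1 pair, lower calls ranged from 5 (without pair 2) to 14 for chains (11 without pair 1). They ranged from 4 to 15 for synthesis genes (7 without pair 1) and from 2 to 5 for receptors. Higher calls ranged from 0 to 1 for chains and for synthesis genes, and 0 receptors were higher. Among all tested genes, 665 of 13375 were lower and 530 higher without pair 1. These numbers were 388 and 348 of 13607 without pair 2, and 2200 and 1924 of 13602 without pair 3. Without the block DESeq2 called 4 chains lower, 0 synthesis genes and 1 receptor, and the other unblocked settings, left-out libraries included, called 0. Among the higher chain calls, Col2a1 passed in 5 of its 8 alternatives with the block, a direction that the low-count filter fixed. The cause of these differences was not tested. Each fit without a pair also has fewer libraries, and the calls differed with the pair left out.

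The basement membrane median (log2) was -0.35 with total counts as scaling, the same with the block added, and -0.36 with the length correction. With the block and without 1 pair, the fibrillar median ranged from -0.35 to -0.16 and the FACIT median from -0.41 to -0.15, both smallest in size without pair 3. Over left-out libraries without the block, the class medians ranged from -0.39 to -0.0738 (fibrillar), -0.54 to -0.39 (basement membrane), -0.48 to 0.062 (FACIT) and -0.45 to -0.14 (other chains). Without control library 3 the fibrillar, FACIT and other medians were the highest of these. The log2 ratio of the collagen share of counts ranged from -0.59 to -0.0181 over left-out libraries, and those of the FPKM shares from -0.0124 to 0.0825 (fibrillar), -0.41 to 0.20 (basement membrane), -0.52 to -0.28 (FACIT) and -0.31 to 0.32 (other). The basement membrane and other shares turned upward without control library 1. Without Col1a1, Col1a2 and Col3a1 the fibrillar share ratio was 0.21.

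The direction of some values turned with the setting. Col3a1 (log2 fold change -0.48 without the block) was 0.36 without control library 3 and 0.11 with the block and without pair 3, and ranged from -0.86 to 0.36 over left-out libraries. Col5a3 (log2 fold change -0.12 without the block) was 0.00676 with total counts as scaling, 0.0499 with that scaling and the block, 0.0417 with the length correction, 0.14 without knockdown library 2, 0.43 without control library 3 and 0.0875 with the block and without pair 3, and ranged from -0.45 to 0.43 over left-out libraries. Col11a2 (log2 fold change 0.11 without the block) was -0.14 without knockdown library 1, -0.0836 without control library 3 and -0.0496 with the block and without pair 3, and ranged from -0.14 to 0.29 over left-out libraries. Col4a3 (log2 fold change -0.83 without the block) was 0.56 without control library 1, and ranged from -1.87 to 0.56 over left-out libraries. Col16a1 (log2 fold change -0.28 without the block) was 0.062 without control library 3, and ranged from -0.48 to 0.062 over left-out libraries. Col14a1 (log2 fold change -0.95 without the block) was 0.38 without control library 3 and 0.11 with the block and without pair 3, and ranged from -1.41 to 0.38 over left-out libraries. Col20a1 (log2 fold change -0.29 without the block) was 0.0124 without control library 1, and ranged from -0.45 to 0.0124 over left-out libraries. Col8a2 (log2 fold change -0.24 without the block) was 0.0378 with the block and without pair 3. Col7a1 (log2 fold change 0.22 without the block) was -0.20 without knockdown library 1 and -0.14 without control library 3, and ranged from -0.20 to 0.65 over left-out libraries. Col17a1 (log2 fold change 0.0102 without the block) was -0.00115 with DESeq2 size factors, -0.00124 in DESeq2, -0.049 without knockdown library 1, -0.0778 without control library 2, -0.0386 with the block and without pair 1 and -0.0138 with the block and without pair 2, and ranged from -0.0778 to 0.0868 over left-out libraries. Col18a1 (log2 fold change -0.48 without the block) was 0.0195 without control library 3, and ranged from -0.75 to 0.0195 over left-out libraries. Serpinh1 (log2 fold change -0.0615 without the block) was 0.0515 with total counts as scaling, 0.0638 with that scaling and the block, 0.02 without knockdown library 1, 0.12 without control library 3 and 0.0587 with the block and without pair 3, and ranged from -0.20 to 0.12 over left-out libraries. Itgb1 (log2 fold change -0.0644 without the block) was 0.0452 with total counts as scaling, 0.0442 with that scaling and the block and 0.0442 with the block and without pair 3. None of the chains named here passed in the fits where its direction turned. No chain called lower with the block turned direction in any alternative with the block, and of these Col16a1 alone turned without the block. Depth limited the 17 chains below 1 CPM, 14 of which were not tested, and the 2 residual degrees of freedom of the block fit limit the precision of its standard errors.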
